A study of Mus musculus with 8 samples.

Results

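Voltage-gated sodium, potassium and HCN channels are the membrane proteins that carry the currents of neuronal excitability, and 34 of their genes were followed in the cortex of mouse embryos that lack Ptbp2. The 34 genes were the pore and auxiliary subunits on a list drawn up by name, and they were matched by current symbol or synonym to 627 probe sets of an exon array, of 303629 probe sets with a single gene symbol. Of the 34, 32 had at least 4 probe sets above a signal filter and were tested among 12960 genes. Affymetrix mouse exon arrays had been hybridised with cortical RNA of embryos at embryonic day 18.5, 1 array per embryo, 4 Ptbp2 knockout and 4 wild type. All embryos had a mixed CD1 and C57BL/6 background, and the allele that disrupts Ptbp2, the cells in which it acts and the sex of the embryos were not stated in the labels.

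Opening of the sodium channel pores gives the rising phase of the action potential. Delayed rectifier and A-type potassium channels repolarise the membrane and space the spikes, while KCNQ channels hold back repetitive firing and HCN channels open on hyperpolarisation. In the brain many of these genes come on late in development, and several are made in alternatively spliced forms, among them the sodium channel pores, whose alternative exons differ between embryonic and mature brain. Ptbp2 is an RNA-binding splicing repressor of developing neurons, so both the level of each channel gene and the signal of single probe sets relative to their gene were compared.

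The deposited values are log2 signals, and array medians lay between 6.82 and 6.93. Arrays give no read depth, so their number limits the precision. As a check of the labels, Ptbp2 was at 5.95 ± 0.34 in knockout and 11.20 ± 0.14 in wild type cortex (SD, n = 4 each), a log2 fold change of -5.25 (SE 0.14, limma adjusted p = 1.7e-12, two-sided exact permutation p = 0.0286, the smallest that 4 against 4 arrays allow). The knockout mean lay below the signal filter of 6.84, so this fall has no exact size. In principal components of all gene values, wild type 3 lay apart on the first (21.5) and knockout 3 on the second (-19.4). Wild type 1 lay far out on both, at -13.7 and 11.9. Knockout 2 was low in the choroid plexus gene Ttr (9.36, against 13.18 to 13.34 on the other knockout and 13.32 to 13.38 on the wild type arrays). Of the markers of cortical excitatory neurons, Neurod2 (11.66 in knockout, 11.61 in wild type), Neurod6 and Tbr1 lay above the filter in both groups, and striatal, interneuron and progenitor markers were present too. In such bulk tissue fewer cells of a type and less RNA per cell cannot be told apart.

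No channel gene passed the test of its level. By limma with Benjamini-Hochberg adjustment over all genes, 0 of the 32 genes passed at 0.05, beside 0.116% of all 12960 genes, and the smallest adjusted p was 0.72, for the A-type channel gene Kcnd3. At an unadjusted p under 0.05 there were 2, Kcnd3 and the sodium channel gene Scn1a, or 6.25% of the members, beside 6.49% of all genes. The groups did not overlap in 1 of the 32, Kcnd3, beside 3.65% of all genes. There the knockout arrays were wholly below, which held for 1.97% of all genes, and knockout arrays wholly above, found for 1.68% of all genes, occurred in 0 members. Log2 fold changes ran between -0.25 and 0.24 with a median of -0.029, against a median of 0.0027 over all genes. Of the 32, 13 were higher and 19 lower in knockout cortex, where 51% of all genes were higher and 49% lower. These counts turned to 20 higher and 12 lower under array weights and to 18 and 14 without wild type 1. In the other direction, they were 9 higher and 24 lower with no signal filter, where 33 were tested. With quantile or cyclic loess normalization they were 11 and 21. The balance of directions was therefore not stable.

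How far a change was bounded can be read from the intervals. All 32 intervals of 95% lay within a log2 fold change of 1 in either direction, and 31 lay within 0.5. The exception was Kcnip1, whose interval reached -0.56. The within-group SD of the members (median 0.15, range 0.040 to 0.28) was close to that of all genes (median 0.15), so the channel genes were measured about as precisely as the rest. RMA compresses low signals, and these bounds hold on that compressed scale. The plot of fold changes by channel class shows the 32 estimates and intervals.

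**Figure D1:**
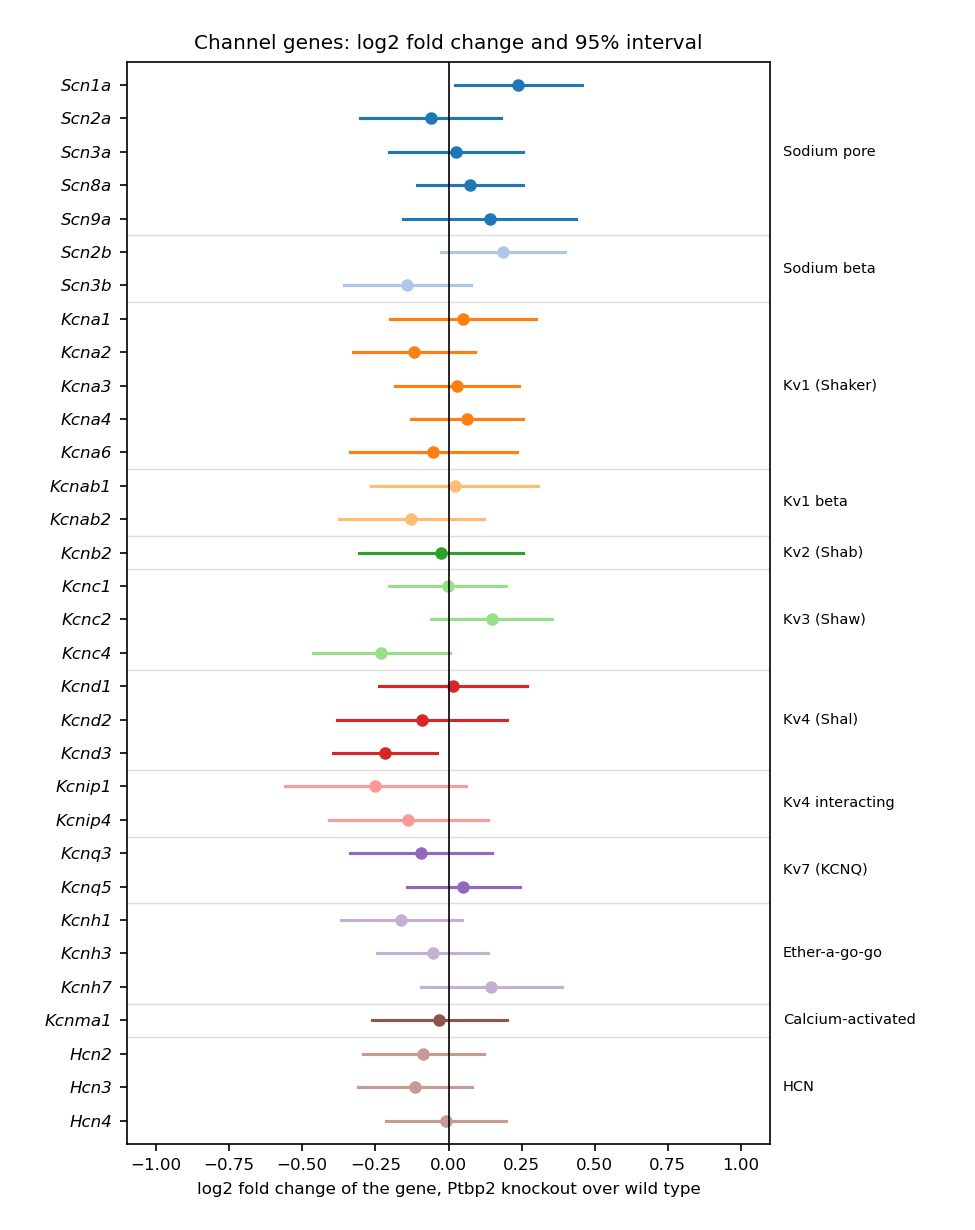
Log2 fold change of each of the 32 tested channel genes, Ptbp2 knockout over wild type (n = 4 arrays each), with its 95% interval from limma; colours and labels on the right give the channel class. All intervals lie between -0.56 and 0.46, and those of 2 genes, Scn1a and Kcnd3, leave out 0 before adjustment for multiple testing.

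Among the sodium channel pores, Scn1a had the highest fold change of all members and those of Scn2a and Scn3a lay near 0. Scn1a encodes a channel best known from fast-spiking interneurons, and it comes on late in cortical development. It was at 8.55, 8.36, 8.38 and 8.63 in the 4 knockout arrays, against 8.45, 8.16, 8.24 and 8.12 in the 4 wild type arrays. Wild type 1 lay among the knockout values and the groups overlapped. The log2 fold change of 0.24 (SE 0.10, limma adjusted p = 0.75) did not pass, and with 1 array left out the fold change ran between 0.19 and 0.31. It was 0.12 when probe sets under the 75th percentile were dropped and 0.35 with array weights (limma adjusted p = 0.098). Of its 26 probe sets above the filter, 22 were higher in knockout cortex, and in 2 of these, 5521795 (0.44) and 4543637 (0.29), the groups did not overlap. Of all probe sets above the filter, 4.24% had no overlap. Probe sets of a gene report on the same RNA and are not replicates.

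Scn3a, the sodium channel that prevails in embryonic brain, was at 9.91 ± 0.14 in knockout and 9.89 ± 0.17 in wild type cortex (SD, n = 4 each here and below), with a log2 fold change of 0.025 (95% interval -0.20 to 0.25). Scn2a, the main channel of young excitatory axons, had 10.17 ± 0.12 in knockout and 10.23 ± 0.22 in wild type cortex, a log2 fold change of -0.061 (95% interval -0.30 to 0.18). Its wild type 1 value, 10.55, was the highest of the 8. Scn8a, the channel of nodes and initial segments of mature neurons, was at 8.71 ± 0.059 in knockout and 8.63 ± 0.058 in wild type cortex with a log2 fold change of 0.073 (95% interval -0.11 to 0.26). For Scn8a 29 of 37 probe sets were higher, and in 4973658 (0.41) and 5110721 (0.32) the groups did not overlap, with limma adjusted p = 0.47 and 0.59. These were 2 of 37, beside 4.24% of all probe sets above the filter. Scn9a, best known from peripheral sensory neurons, had a log2 fold change of 0.14 and overlapped widely, with 8.88, 8.36, 8.35 and 8.81 in the 4 knockout arrays, against 8.41, 8.27, 8.79 and 8.35 in the 4 wild type arrays. As a class the pores had 4 of 5 genes higher, a median of 0.073, and 0 past the test.

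The beta subunits, small membrane proteins that tune gating and surface delivery of the pores, had opposite signs and did not pass. Scn2b was at 8.10, 8.25, 8.51 and 8.33 in the 4 knockout arrays, against 8.18, 8.11, 8.02 and 8.14 in the 4 wild type arrays, a log2 fold change of 0.19 (SE 0.10, limma adjusted p = 0.81). Knockout 3 held its highest value, and knockout 1 lay inside the wild type range. Without knockout 3 the fold change was 0.11, and its sign turned to -0.0028 with no signal filter and -0.024 when probe sets under the 75th percentile were dropped. Scn3b, a beta subunit abundant in embryonic brain, was at 10.95 ± 0.13 in knockout and 11.09 ± 0.14 in wild type cortex with a log2 fold change of -0.14 (95% interval -0.36 to 0.077). All 14 of its probe sets above the filter were lower in knockout cortex, with log2 fold changes of -0.44 to -0.0081. In 1 of 14 the groups did not overlap, beside 4.24% of all probe sets above the filter. Scn4b, the subunit linked to resurgent current, had only 1 of 8 probe sets above the filter and was not tested as a gene. That probe set, 4466089, was at 7.14 ± 0.15 in knockout and 6.81 ± 0.28 in wild type cortex (limma adjusted p = 0.67). The wild type mean lay below the filter of 6.84, so the difference has no exact size, and the other 7 had means between 4.21 and 5.92 over the 8 arrays.

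The Shaker-type (Kv1) genes, delayed rectifiers of axons and their relatives, lay close to 0. Log2 fold changes were 0.050 for Kcna1, -0.12 for Kcna2, 0.029 for Kcna3, 0.064 for Kcna4, an A-type member, and -0.052 for Kcna6. Kcna1 and Kcna2 form the channels beside the nodes of myelinated axons, and myelin is not yet made in cortex at this age. For Kcna2 the knockout values were close together, at 8.31, 8.30, 8.40 and 8.33, and lay inside the wild type range, 8.22 to 8.62. Kcna6 was at 8.65, 8.64, 8.77 and 8.68 in the 4 knockout arrays, against 9.24, 8.53, 8.55 and 8.62 in the 4 wild type arrays, with wild type 1 far above all others. In Kcna6 probe set 5416243 the groups did not overlap, at 6.85, 6.85, 6.82 and 6.74 in the 4 knockout arrays, against 7.74, 7.11, 7.16 and 6.93 in the 4 wild type arrays, but the knockout mean of 6.82 lay below the filter and the fold change of -0.42 did not pass (limma adjusted p = 0.60). Kcna3 was the member nearest the limit of the gene filter, with 4 of 4 probe sets retained. Kcna5, outside it with 2 of 3, averaged 7.11 ± 0.091 in knockout and 7.03 ± 0.29 in wild type cortex over those 2. The cytoplasmic beta subunits of these channels differed little, with 0.021 for Kcnab1 and -0.13 for Kcnab2. In Kcnab2 wild type 3 was low (8.55, against 8.98 to 9.07 on the other wild type arrays), and knockout values ran between 8.60 and 8.86.

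Among the Shab and Shaw (Kv2 and Kv3) genes, Kcnb2, a delayed rectifier, had a log2 fold change of -0.027 and Kcnc1, the pore of fast-spiking cells, -0.0032. Kcnc2, its partner in fast-spiking interneurons, was at 8.83, 8.67, 9.01 and 8.74 in the 4 knockout arrays, against 8.74, 8.60, 8.74 and 8.58 in the 4 wild type arrays. Knockout 3 was the highest, knockout 2 and knockout 4 lay among the wild type arrays, and the log2 fold change of 0.15 (SE 0.10, limma adjusted p = 0.87) did not pass. Without knockout 3 it was 0.082. It was 0.0078 with no signal filter, 0.028 when probe sets under the 75th percentile were dropped and -0.014 when the mean of the probe sets was used, a measure that takes in the deviating probe set described further on. Kcnc4, a fast-inactivating Kv3 pore, had one of the lowest fold changes. It was at 8.08, 7.74, 8.11 and 8.15 in the 4 knockout arrays, against 8.29, 8.32, 8.04 and 8.35 in the 4 wild type arrays, a log2 fold change of -0.23 (SE 0.11, limma adjusted p = 0.77). Wild type 3 lay among the knockout values, and without knockout 2, the lowest array, the fold change was -0.14. Of 7 Kcnc4 probe sets 6 were lower, and 4508651 had no overlap (-0.44, limma adjusted p = 0.45). This was 1 of 7, beside 4.24% of all probe sets above the filter.

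The Shal (Kv4) channels carry the somatodendritic A-type current, and among them the groups did not overlap in Kcnd3. It was at 8.78, 8.83, 8.77 and 8.78 in the 4 knockout arrays, against 9.02, 9.07, 8.96 and 8.97 in the 4 wild type arrays. All knockout arrays lay below all wild type arrays, and both groups were tight, with SDs of 0.025 in knockout and 0.051 in wild type. The difference was small, a log2 fold change of -0.22 (SE 0.084, limma adjusted p = 0.72), and did not pass. It kept between -0.23 and -0.19 with 1 array left out, and was -0.060 when probe sets under the 75th percentile were dropped. Of its 12 probe sets, 11 were lower. By contrast, Kcnd2, the other main Kv4 pore of forebrain, had 9.77 ± 0.28 in knockout and 9.86 ± 0.21 in wild type cortex (log2 fold change -0.090, 95% interval -0.38 to 0.20), and Kcnd1, on the X chromosome, 0.015. No test of the difference between these genes was run.

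Kcnip1 and Kcnip4 encode calcium-binding proteins that bind Kv4 pores and set their gating, and Kcnip1 is made mainly by interneurons. Kcnip1 had the lowest fold change of all members, with 8.99, 8.72, 8.35 and 9.15 in the 4 knockout arrays, against 9.29, 9.06, 8.88 and 8.98 in the 4 wild type arrays. The groups overlapped, since knockout 4 was above all but 1 wild type array while knockout 3 was far below. The log2 fold change of -0.25 (SE 0.15, limma adjusted p = 0.83) did not pass, and without knockout 3 it was -0.10. Kcnip4 was at 8.18 ± 0.21 in knockout and 8.32 ± 0.24 in wild type cortex with a log2 fold change of -0.14.

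Markers of cell types were compared as well. Of the striatal projection neuron markers tested, 5 of 5 were lower in knockout cortex. Their summed signal, as log2, was 10.94 to 11.29 in knockout and 11.50 to 11.86 in wild type arrays, with no overlap. Tac1 had a log2 fold change of -0.75 (limma adjusted p = 0.095), Ppp1r1b -0.48 (limma adjusted p = 0.085) and Penk -0.47 (limma adjusted p = 0.18). Drd2 had -0.35 (limma adjusted p = 0.61) and Drd1 -0.28 (limma adjusted p = 0.54), and none passed at 0.05. The groups did not overlap in 4 of these 5, all but Drd2, beside 3.65% of all genes. Interneuron markers were lower in 8 of 9, with summed signals of 12.997 to 13.25 in knockout and 13.17 to 13.46 in wild type arrays, which overlapped, and excitatory markers were lower in 2 of 5 (12.85 to 13.04 in knockout, 12.85 to 13.06 in wild type). One of these 2, Slc17a7, the vesicular glutamate transporter of maturing cortical neurons, was wholly below in knockout with a log2 fold change of -0.49 (limma adjusted p = 0.36). Choroid plexus markers were lower in 5 of 5 (10.15 to 13.49 in knockout, 13.46 to 13.51 in wild type). Knockout 2 was the lowest array in Ttr (9.36), Clic6 (6.14), Folr1 (7.18) and Aqp1 (7.11), but not in Kl. Fold changes of these markers without knockout 2 were not computed. Oligodendrocyte lineage markers were lower in 5 of 5 (10.85 to 10.965 in knockout, 10.972 to 11.25 in wild type, barely without overlap). Microglia markers were higher in 2 of 2 (8.96 to 9.17 in knockout, 8.79 to 8.93 in wild type, without overlap), with Aif1, Cx3cr1 and P2ry12 not tested. Progenitor markers were higher in 5 of 6, endothelial and mural markers in 3 of 4 and erythroid markers in 1 of 1. Astrocyte markers were lower in 3 of 4. For the progenitor, endothelial, erythroid and astrocyte lists the sums overlapped. The part of these markers in the channel values was not tested.

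**Figure D2:**
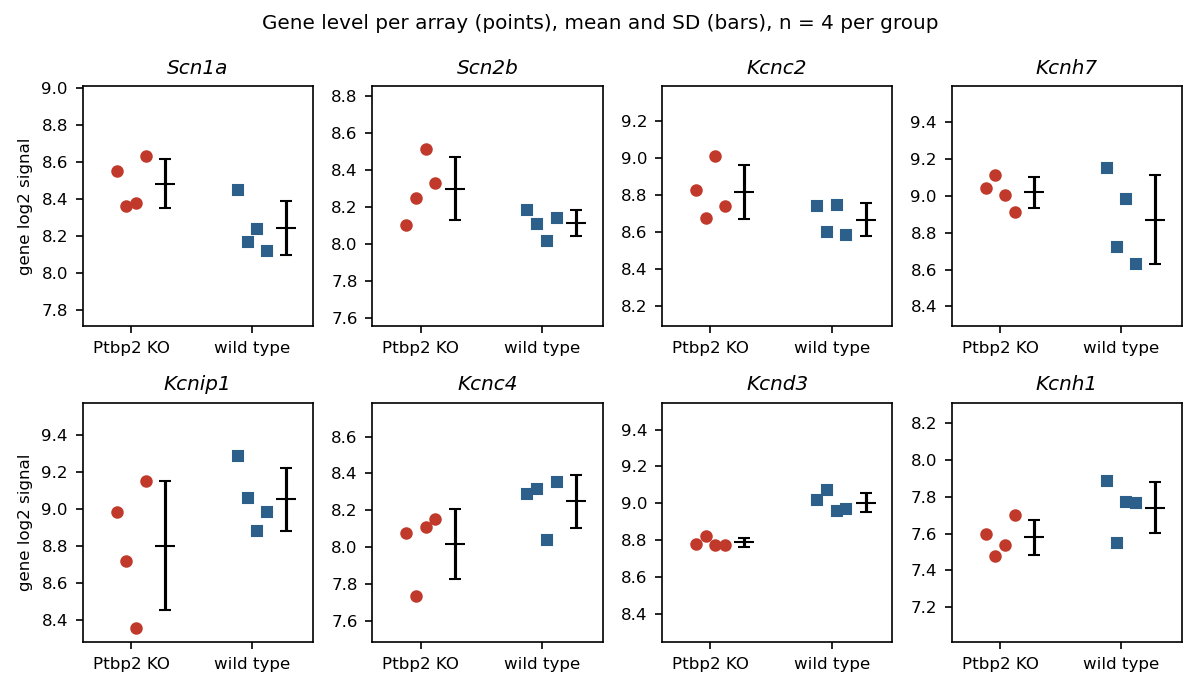
Gene level (log2 signal, median of the probe sets above the filter) on each array for the 4 channel genes with the highest and the 4 with the lowest fold change; circles are Ptbp2 knockout, squares wild type, bars the mean and SD (n = 4 each), and all panels span the same log2 range. The groups are apart only in Kcnd3, where the 4 knockout arrays sit between 8.77 and 8.83 and the 4 wild type arrays between 8.96 and 9.07.

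The remaining channel classes differed little. Of the KCNQ (Kv7) genes that carry the M-current, Kcnq3 was at 9.23 ± 0.19 in knockout and 9.32 ± 0.17 in wild type cortex (log2 fold change -0.094) and Kcnq5 at 8.95 ± 0.088 in knockout and 8.90 ± 0.093 in wild type cortex (0.051). The ether-a-go-go family had -0.16 for Kcnh1, -0.054 for Kcnh3 and 0.15 for Kcnh7. Kcnh1 was at 7.60, 7.48, 7.54 and 7.70 in the 4 knockout arrays, against 7.88, 7.55, 7.77 and 7.76 in the 4 wild type arrays, and wild type 2 lay among the knockout arrays (limma adjusted p = 0.83). Kcnh7, a pore of the erg type, was at 9.04, 9.11, 9.005 and 8.91 in the 4 knockout arrays, against 9.15, 8.72, 8.98 and 8.63 in the 4 wild type arrays. Its wild type arrays spread on both sides of the knockout arrays, which did not vary much, and the log2 fold change of 0.15 (SE 0.11, limma adjusted p = 0.90) did not pass. It was 0.067 without wild type 4, 0.097 without wild type 2 and 0.24 without wild type 1. Of 28 Kcnh7 probe sets 24 were higher, and in 1 of 28, 4805074, the groups did not overlap (0.48, limma adjusted p = 0.51). Kcnh3, by contrast, had 20 of 23 probe sets lower, with no overlap in 2 of them. For both genes the share over all probe sets above the filter was 4.24%.

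Kcnma1, the pore of the large-conductance channel opened by calcium and voltage together, was at 9.51 ± 0.13 in knockout and 9.55 ± 0.19 in wild type cortex (log2 fold change -0.032, 95% interval -0.26 to 0.20). The HCN genes, pores of the pacemaker current, were lower in 3 of 3 without passing. Hcn2 had -0.086, Hcn3 -0.11 and Hcn4 -0.0085. Single probe sets went the other way in 2 of them, with 6 of 9 higher for Hcn3 and 7 of 11 higher for Hcn4, against 4 of 13 higher for Hcn2, and the count of lower genes was 1 when the mean of the probe sets was used. Their intervals, in that order, were -0.29 to 0.12, -0.31 to 0.081 and -0.21 to 0.20. In knockout cortex the highest SD was that of Kcnip1 (0.35), and in wild type that of Kcna6 (0.34).

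Single arrays were high or low in many channel genes together. Wild type 1 was the highest of the 4 wild type arrays in 21 of the 32 genes, while knockout 2 was the lowest of the 4 knockout arrays in 14 and wild type 2 the lowest of the 4 wild type arrays in 14. The median deviation of the members from their own means was 0.15 on wild type 1, where that over all genes was 0.092. It was -0.082 on both knockout 2 and wild type 2, where those over all genes were -0.027 on knockout 2 and -0.029 on wild type 2. Without wild type 1 the median fold change of the members was 0.027, and that of all genes 0.032.

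The other channel genes and channel partners gave no call either. Of 55 on a list of further pores, auxiliary subunits and scaffold proteins, 33 were tested, 11 higher and 22 lower, and 0 passed in limma, with a median of -0.055. At an unadjusted p under 0.05 there were 3, the axonal adhesion protein Cntnap2 (-0.28), the sodium channel partner Fgf13 (-0.31) and the HCN partner Pex5l (-0.21), or 9.09%, beside 6.49% of all genes. The groups did not overlap in 2 of the 33, Cntnap2 and the ether-a-go-go gene Kcnh4 (-0.16), beside 3.65% of all genes. Cntnap2, Pex5l and Kcnh4 were picked out after their values were seen. Fgf13, which binds the tails of sodium channel pores, had the lowest fold change of the list. It was at 10.002, 9.79, 9.82 and 9.78 in the 4 knockout arrays, against 10.55, 10.06, 9.95 and 10.09 in the 4 wild type arrays, and wild type 3 lay among the knockout arrays (limma adjusted p = 0.72). Without wild type 1 the fold change of Fgf13 was -0.18. Kcne2, a beta subunit made in choroid plexus, was next at -0.29, with 8.29, 7.24, 9.02 and 8.73 in the 4 knockout arrays, against 8.52, 8.86, 8.41 and 8.62 in the 4 wild type arrays. Knockout 2, the array low in Ttr, was the lowest, and without it the fold change was 0.074. The highest fold changes were those of Kcnt2, a sodium-activated potassium channel (0.22), and Kcnmb2, a beta subunit of the large-conductance channel (0.14). Without knockout 1 they were 0.12 for Kcnt2 and 0.025 for Kcnmb2, and Kcnmb2 was 0.22 without wild type 1. Filters moved them too, Kcnt2 to 0.40 with probe sets under the 75th percentile dropped and Kcnmb2 to 0.00038 with no filter. Another 14 genes had fewer than 4 probe sets above the filter, and 8 were not analysed here.

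Single probe sets were compared next, first by their own level. Of 531 member probe sets above the filter, 0 passed in limma, beside 0.0921% of all 312767, and 28, or 5.27%, had an unadjusted p under 0.05, beside 7.44% of all. The groups did not overlap in 16, or 3.01%, beside 4.24% of all. Fold changes ran from -0.94 to 0.53. The smallest p was that of Kcnd3 probe set 4652611, at 7.002, 7.39, 7.24 and 7.41 in the 4 knockout arrays, against 7.95, 8.19, 7.79 and 8.07 in the 4 wild type arrays. All knockout values were lower, and the log2 fold change of -0.74 (SE 0.13, limma adjusted p = 0.10) did not pass. With array weights it passed (adjusted p = 0.024).

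Usage, the deviation of a probe set's fold change from that of the other probe sets of its gene, was compared to ask whether parts of a channel transcript differed in the absence of this splicing repressor. Genome positions of the probe sets were not used here, so a probe set is not assigned to an exon. By limma diffSplice over 195604 probe sets, 1 of 528 member probe sets passed, or 0.189%, beside 0.212% of all probe sets. It was 5302588 of Kcnc2, with a deviation of -0.99 (SE 0.22, diffSplice adjusted p = 0.012).

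The Kcnc2 call rested on single arrays. Probe set 5302588 was at 4.87, 7.82, 6.34 and 7.16 in the 4 knockout arrays, against 7.33, 7.53, 7.66 and 7.43 in the 4 wild type arrays. The wild type arrays were tight (SD 0.14) and the knockout arrays were not (SD 1.27), with knockout 1 more than 2 log2 units below every wild type array and knockout 2 above every one. Relative to Kcnc2 as a whole it was at -3.96, -0.85, -2.67 and -1.58 in the 4 knockout arrays, against -1.41, -1.07, -1.09 and -1.15 in the 4 wild type arrays, so the groups overlapped. In the splicing index model, which subtracts the gene's median and gives each probe set its own variance, the difference was -1.08 with an adjusted p = 0.92 (unadjusted p = 0.079, limma). Without knockout 1 the diffSplice deviation was -0.40 (adjusted p = 1.0), and the call was also lost without wild type 3 (0.093), wild type 4 (0.090) or knockout 3 (0.24). The knockout mean, 6.55, lay below the filter of 6.84, so the deviation has no exact size. The other 14 Kcnc2 probe sets above the filter had fold changes between -0.13 and 0.33.

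**Figure D3:**
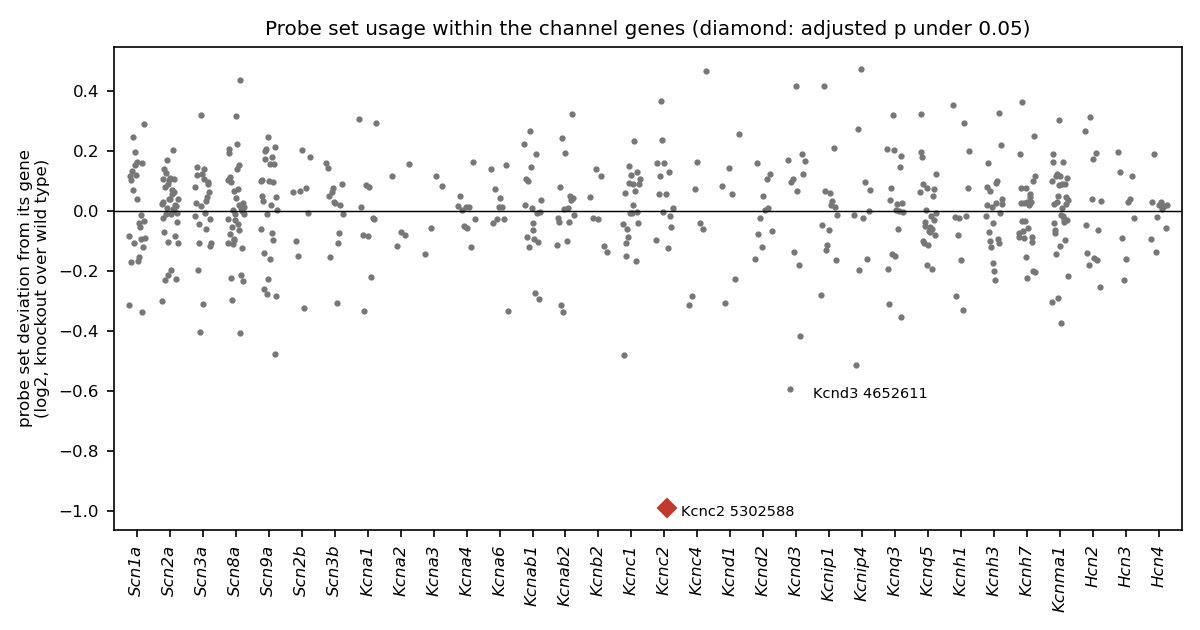
Deviation of each of the 528 tested channel probe sets from its gene (log2 fold change of the probe set relative to the other probe sets, Ptbp2 knockout over wild type, n = 4 arrays each), 1 column per gene. The diamond is the 1 probe set past diffSplice at an adjusted p of 0.05, Kcnc2 5302588 at -0.99, and Kcnd3 4652611 follows at -0.59.

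By the splicing index 0 of 528 passed at an adjusted p of 0.05, beside 0.00869% of all probe sets. At an unadjusted p under 0.05 there were 22, or 4.17%, beside 5.27% of all, and with diffSplice 20, or 3.79%, beside 4.57%. Relative to their gene, 19 member probe sets, or 3.6%, had no overlap between the groups, beside 2.92% of all.

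Of these 19, Kcnd3 4652611 deviated most. It lay -1.78, -1.44, -1.53 and -1.36 in the 4 knockout arrays, against -1.06, -0.89, -1.17 and -0.90 in the 4 wild type arrays relative to its gene, so the whole knockout group was lower. The diffSplice deviation was -0.59 (SE 0.16, diffSplice adjusted p = 0.090) and the splicing index adjusted p was 0.77, so neither passed. Of 17 alternative settings, 3 gave this probe set an adjusted p under 0.05. These were diffSplice without knockout 2 (adjusted p = 0.022), with array weights (6.2e-04) and with a block for replicate number (0.0069). Dropping any other single array gave no pass, with diffSplice adjusted p from 0.052 (wild type 3 dropped) to 0.76 (knockout 1 dropped). It was 0.48 with wild type 4 dropped and 0.39 with knockout 3 dropped. The deviation shrank to -0.49 when knockout 1 was dropped. The knockout mean was 7.26 and the wild type mean 8.001, both above the filter. In the same gene 5452522 deviated by -0.42 and 5003970 by 0.41, both with overlap and neither past the test. Kcnd3 is known to be spliced in its coding region, and which of these probe sets lie in an alternative exon was not determined here.

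Among the probe sets higher relative to their genes without overlap, the highest deviations, 1 per gene, were in Kcnip4, Kcnc4, Scn8a and Kcnab2. None of these passed either model, and the rest of the 19 without overlap are not all named here. Kcnip4 4961856 lay -1.05, -1.44, -0.89 and -1.20 in the 4 knockout arrays, against -1.61, -1.46, -1.82 and -1.75 in the 4 wild type arrays relative to its gene, a diffSplice deviation of 0.47 (SE 0.18, diffSplice adjusted p = 0.66), and its wild type mean of 6.66 was below the filter. Kcnc4 5523134, in a gene whose other probe sets were mostly lower, lay 1.87, 1.77, 1.84 and 1.53 in the 4 knockout arrays, against 1.40, 1.19, 1.47 and 1.15 in the 4 wild type arrays relative to it, a deviation of 0.46 (SE 0.15, diffSplice adjusted p = 0.40). For Scn8a 5225870 the relative values were -0.40, -0.97, -0.63 and -0.83 in the 4 knockout arrays, against -0.999, -1.14, -1.04 and -1.47 in the 4 wild type arrays, with a deviation of 0.44 (SE 0.16, diffSplice adjusted p = 0.55). Scn8a has alternative exons that change during neuronal maturation, and whether this probe set lies in one was not determined here. Kcnab2 5397161 deviated by 0.32 (SE 0.21, diffSplice adjusted p = 1.0).

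Among those lower without overlap, the lowest deviations after Kcnd3, again 1 per gene, were in Kcna6, Scn1a and Kcnh7. Kcna6 5416243 was at -0.33 (SE 0.18, diffSplice adjusted p = 1.0), Scn1a 4408116 at -0.31 (SE 0.17, diffSplice adjusted p = 1.0) and Kcnh7 5050430 at -0.22 (SE 0.15, diffSplice adjusted p = 1.0). In Scn1a, where 22 of 26 probe sets were higher, 4408116 was among the 4 that were lower (-0.14), and in Kcnh7 5050430 was among the 4 lower of 28. With array weights 6 member probe sets passed diffSplice, those of Kcnc2, Kcnd3, Kcnip4 and Scn8a 5225870 named above, with Kcnc1 4601162 (-0.52) and Scn8a 4582818 (-0.50). In the plot of relative values by array, 8 of the 9 named probe sets separate the groups because they were named for having no overlap. The 1 named for passing diffSplice does not separate them.

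**Figure D4:**
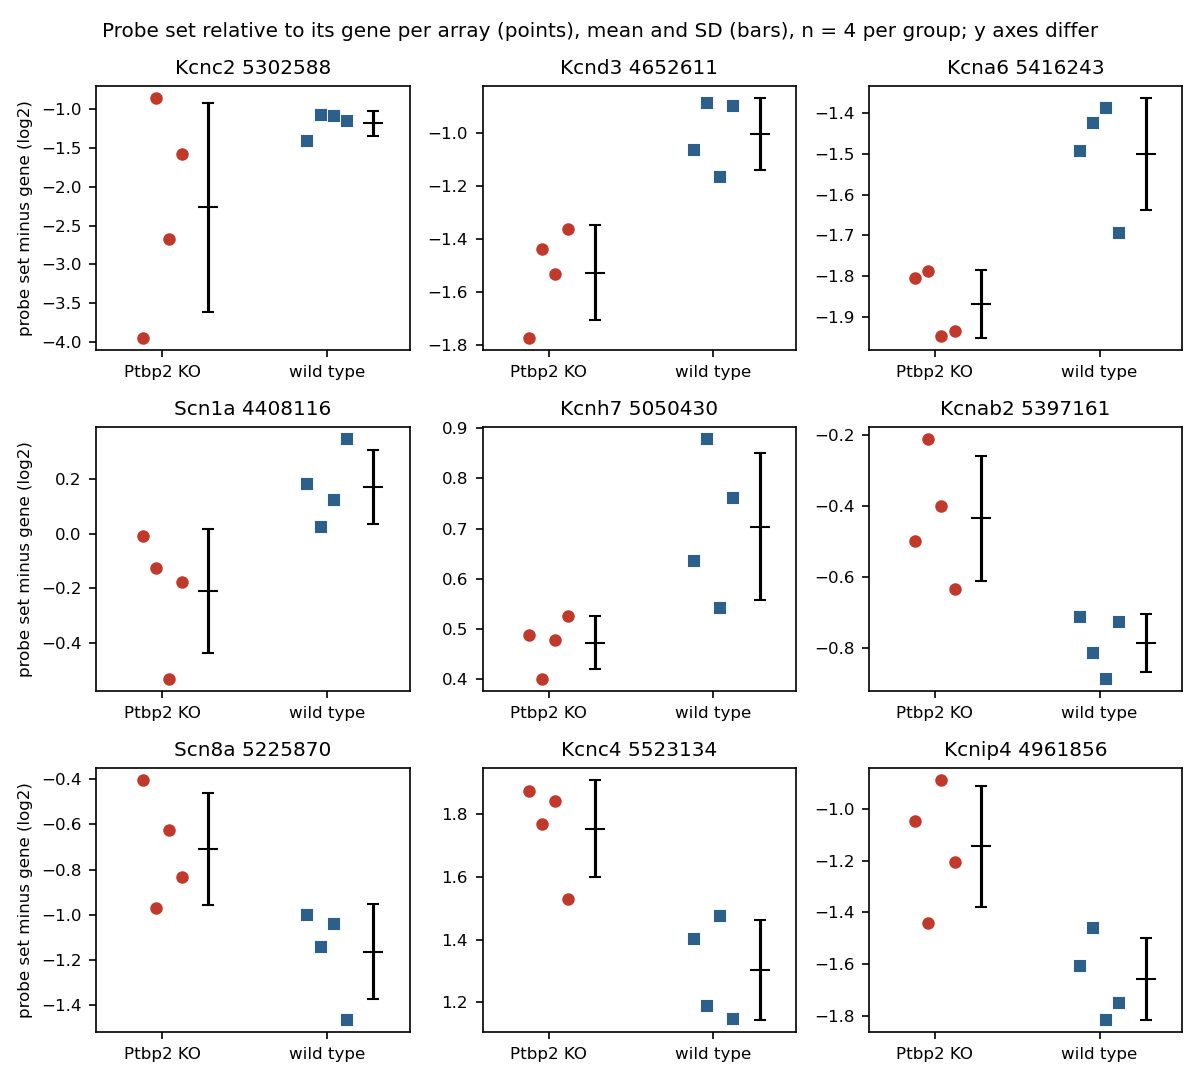
Log2 signal of 9 channel probe sets minus that of their gene on each array; circles are Ptbp2 knockout, squares wild type, bars the mean and SD (n = 4 each), and the y axes differ. In Kcnc2 5302588 the knockout arrays run from -3.96 to -0.85 around wild type arrays at -1.41 to -1.07, whereas in Kcnd3 4652611 the knockout arrays (-1.78 to -1.36) lie below the wild type arrays (-1.17 to -0.89).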

How the data were processed

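RNA from 4 Ptbp2 knockout and 4 wild type cortices was measured on Affymetrix exon arrays, 1 per embryo, and the series design calls the samples biological replicates. What the authors deposited is a table of log2 signals per probe set. Affymetrix Expression Console, RMA and build mm9 are listed, without versions or roles, per the submitters' processing notes. RMA corrects background, normalizes quantiles and summarises probes, so differences in total RNA are removed and low signals are compressed.

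A platform annotation gave 1 symbol to 303629 of 625534 probe sets, several to 5892 and none to 316013; of 21634 symbols 17657 were current in RefSeq (GRCm38.p6) and 3919 were updated by synonym. Probe sets with a mean of at least 6.84, the median over the table, were retained (312767), and genes with at least 4 of them were tested on their median per array. Levels were fitted with lmFit and eBayes of limma 3.58.1 (R 4.3.3) without covariates, usage with diffSplice or, as an alternative, the splicing index, with Ptbp2 left out. P-values were adjusted by Benjamini-Hochberg over all genes or probe sets, and an adjusted p is from limma. The scripts were tested on simulated data.

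Named are the 4 highest and 4 lowest member fold changes, every usage call, the 4 highest and 4 lowest deviations of probe sets without overlap (1 per gene), and 2 other channel genes in each direction. Members, lists and this rule were chosen with earlier results of these data known. Alternatives were other filters, normalizations, summaries and thresholds, array weights, a robust trend, Xist as a covariate, a replicate block, and each array, or wild type 3 and knockout 3 together, left out. Probe sequences and genome positions were not used here.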

Additional observations from a re-analysis of the deposited data

Results flagged for a closer look

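In 7 of 90 groups of 4 arrays tested, 1 array lay far from the other 3 for its gene or probe set, by Dixon's test at 95%, where chance gives about 1 in 20. In the knockout group this held for Kcnd3, where knockout 2 was at 8.83 (other knockout arrays 8.77 to 8.78). On wild type 1 it held for Kcna6 at 9.24 (other wild type arrays 8.53 to 8.62), Kcnc1 at 8.34 (other wild type arrays 8.17 to 8.19), the large-conductance channel subunit gene Kcnmb2 at 8.67 (other wild type arrays 8.33 to 8.39), and Kcnc4 probe set 5523134 at 9.69 (other wild type arrays 9.499 to 9.51), each time as the highest value. Wild type 2 was highest for Kcnh3 at 8.52 (other wild type arrays 8.42 to 8.43). For Kcnab2 wild type 3 was lowest at 8.55 (other wild type arrays 8.98 to 9.07).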

How the results depend on the processing

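At an adjusted p of 0.05 the count of channel genes past the test was 0 with limma under every alternative filter, normalization, summary, weighting and left-out array. In the main setting it was also 0 at an adjusted p of 0.1, and 2 at an unadjusted p of 0.05. The threshold of 0.1 was not counted under the alternatives, where Scn1a with array weights had a fold change of 0.35 (limma adjusted p = 0.098). For the other channel genes the count past the test was likewise 0, and 3 at an unadjusted p of 0.05. The count of member probe sets past in level was 0, with 28 at an unadjusted p of 0.05 and 1 (Kcnd3 4652611) with array weights. The usage count of 1 was the least stable. It was 2 at an adjusted p of 0.1 and 20 at an unadjusted p of 0.05, 0 by the splicing index, 4 with no filter (Kcnc2 with low-signal probe sets of Kcnab1, Kcnma1 and Scn3b), 0 with the filter at the 75th percentile, where fewer probe sets were tested, 6 with array weights, 0 without wild type 3 and knockout 3 together, and 0 to 2 with 1 array left out. The cause of these shifts was not tested, except that the stricter filter leaves Kcnc2 5302588 out. The median fold change of the members ran from -0.067 to 0.046, and from -0.067 to 0.027 with 1 array left out. Signs turned for Kcnc2 with the mean of the probe sets (-0.014), Scn2b with no filter (-0.0028) and at the 75th percentile (-0.024), and Kcne2 without knockout 2 (0.074, with a lowest value of -0.52 without knockout 3). Ptbp2 stayed between -5.35 and -4.73. Signal over background limits probe sets near 6.84.

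The labels state no pairing, so the numbers were not taken as pairs. Deviations of same-numbered arrays correlated by 0.25, -0.0039, 0.033 and 0.17. Knockout 1 and knockout 4 correlated best with the wild type array of the same number, knockout 2 and knockout 3 with another. These mixed values cannot settle whether arrays were paired. With the replicate number as a block, 2 member probe sets passed in usage (Kcnc2 5302588 and Kcnd3 4652611) and 0 genes in level.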

Other observations

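Among the other channel genes, 0 of 509 probe sets passed in usage with diffSplice or the splicing index, and 27 had an unadjusted diffSplice p under 0.05, where 4.57% of all probe sets did. The genes that follow were chosen after their values were seen, and no explanation was tested. In Kcnt2, a sodium-activated potassium channel, 25 of 26 probe sets above the filter were higher in knockout cortex. Of the 26, 8 had no overlap, beside 4.24% of all probe sets above the filter. An unadjusted limma p under 0.05 was found for 11 of 26, beside 7.44% of all. Probe sets of a gene report on the same RNA and are not replicates, so neither count is one of independent results. At gene level the groups overlapped, with wild type 1 at 8.35 and the knockout arrays between 8.05 and 8.55. The gene did not pass (limma adjusted p = 0.83). Of the Kcnt2 probe sets the highest fold change was that of 4898437. Its values were 8.38, 7.69, 8.16 and 8.03 in the 4 knockout arrays, against 7.66, 7.10, 7.16 and 7.29 in the 4 wild type arrays. All knockout values were higher, with a mean difference of 0.76 on the log2 scale where the gene as a whole had 0.22, but its splicing index adjusted p was 0.53 and its diffSplice adjusted p 0.60.

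Ank3 encodes ankyrin-G, which anchors sodium and KCNQ channels at the axon initial segment, and as a gene it had a log2 fold change of -0.016. Of its 69 probe sets above the filter 50 were lower. In 5 of the 69 the groups did not overlap, all lower, beside 4.24% of all probe sets above the filter. Among these 5 are 4884583 and 4587518, picked for the smallest diffSplice p. The first was at 9.55, 9.78, 9.13 and 9.75 in the 4 knockout arrays, against 10.40, 9.84, 10.30 and 9.99 in the 4 wild type arrays, and the other at 9.61, 9.11, 9.12 and 9.58 in the 4 knockout arrays, against 10.17, 9.69, 9.94 and 9.78 in the 4 wild type arrays. Their diffSplice deviations were -0.501 (SE 0.14, diffSplice adjusted p = 0.14) and -0.46 (SE 0.14, diffSplice adjusted p = 0.25). In Kcnh4, a pore of the ether-a-go-go family, 5129513 was lower without overlap (7.18, 6.39, 7.06 and 7.15 in the 4 knockout arrays, against 7.64, 7.61, 7.45 and 7.495 in the 4 wild type arrays), while 4478212 deviated by 0.54 (SE 0.18, diffSplice adjusted p = 0.41) in the opposite direction.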
